A study of Mus musculus with 16 samples.

Results

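The 10 genes followed here are immediate-early genes of neuronal activity: Arc, Fos, Fosb, Junb, Egr1, Egr2, Egr3, Egr4, Nr4a1 and Npas4. They were chosen by symbol, not by a measured value, from the 20436 genes that the gene table of each library lists. All 10 were listed in all 16 libraries and all 10 passed the filter on low counts, both among the 13287 genes tested in RNA-seq and among the 13774 tested in ribosome footprints.

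Immediate-early genes are transcribed within minutes of synaptic activity, because calcium and MAP kinase signals act on transcription factors such as CREB, SRF with its ELK partners, and MEF2 that already sit at their promoters. Their mRNAs and proteins are short-lived, so their levels in cortex report recent activity of the animal's neurons. Most of their products are themselves transcription factors, and Arc instead acts at synapses, where it promotes AMPA receptor endocytosis.

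The samples were both cortical hemispheres of mice 28 to 35 days old, on the strain background labelled FVB.129P2-/Pde6b+ Tyrc-ch //AntJ. There were 4 genotypes: wild type (WT), Fmr1 knockout (Fmr1 encodes FMRP, an RNA-binding protein whose loss causes fragile X syndrome), Cpeb1 knockout (Cpeb1 encodes a protein that binds cytoplasmic polyadenylation elements in mRNA), and a knockout of both genes, called the double KO. The labels name no allele or further treatment for any group, and all groups share the strain background. Each genotype had 2 libraries of cytoplasmic RNA-seq and 2 of ribosome profiling, which sequences the mRNA fragments protected by ribosomes. The labels do not say whether the 2 libraries of a group came from separate animals or litters, so the p-values measure the spread between these libraries, which may be technical. They also do not say what the animals experienced before the cortex was taken.

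Levels are given as CPM, the counts of a gene per 1000000 counts of the library after TMM scaling. A gene is called when its adjusted p-value from edgeR's quasi-likelihood test, adjusted over all genes tested with the Benjamini-Hochberg method, was under 0.05. The RNA-seq libraries held 5423920 to 10246500 counts each, the deeper footprint libraries 16239500 to 24973500. The 10 genes together took 0.0421% to 0.0921% of the RNA-seq counts and 0.112% to 0.249% of the footprint counts. Fmr1 and Cpeb1 themselves followed the labels in all 16 libraries. In footprints, for example, Fmr1 was at 95.7 and 97.3 CPM in WT and at 5.33 and 5.52 in the double KO, and Cpeb1 at 35.5 and 33.4 in WT and at 7.73 and 7.69 in the double KO. Against WT, Fmr1 RNA was called lower in both genotypes that lack it, but Cpeb1 RNA was not. The Cpeb1 RNA changes were -1.12 ± 0.18 in the Cpeb1 KO and -1.16 ± 0.18 in the double KO (log2, SE, edgeR adjusted p 0.225 and 0.376). A missing RNA call thus does not show an unchanged level. Of the 7 neuronal markers, among them Snap25, Syt1, Slc17a7 and Gad1, all 7 were detected, with a summed level of 6853 to 7472 CPM in footprints. The 4 endothelial markers summed to between 3.29 and 5.34 CPM there.

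RefSeq promoter windows of GRCm38.p6 (mm10 in the submitters' processing notes) were at hand for 7 of the 10 genes (Fos, Fosb, Junb, Egr2, Egr4, Nr4a1 and Npas4). Each window spans 250 bases before to 50 bases after an annotated transcription start. The windows of 4 of the 7 genes are shown as examples. Marked is the core of the cyclic AMP response element (CRE), by which CREB is recruited to activity-regulated promoters. All 7 genes carried this core in at least 1 window. Matches to TGACG, or to its reverse complement CGTCA, are in capitals, and each sequence is written 5′ to 3′ on the gene's own strand. They come from chr12:85473640-85473939 on the plus strand (Fos), chr8:84978699-84978998 on the minus strand (Junb), chr15:101266596-101266895 on the plus strand (Nr4a1) and chr19:4989922-4990221 on the minus strand (Npas4).
Fos: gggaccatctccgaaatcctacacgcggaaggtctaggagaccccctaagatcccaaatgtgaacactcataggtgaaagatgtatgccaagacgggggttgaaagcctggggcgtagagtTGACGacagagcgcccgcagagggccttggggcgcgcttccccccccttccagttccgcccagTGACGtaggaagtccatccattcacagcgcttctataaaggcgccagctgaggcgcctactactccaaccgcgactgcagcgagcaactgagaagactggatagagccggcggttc
Junb: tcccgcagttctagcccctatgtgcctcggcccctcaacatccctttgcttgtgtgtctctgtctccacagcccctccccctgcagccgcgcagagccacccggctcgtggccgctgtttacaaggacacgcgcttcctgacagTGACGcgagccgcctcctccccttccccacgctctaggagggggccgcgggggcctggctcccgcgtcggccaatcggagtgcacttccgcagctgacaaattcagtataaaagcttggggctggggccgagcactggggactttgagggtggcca
Nr4a1: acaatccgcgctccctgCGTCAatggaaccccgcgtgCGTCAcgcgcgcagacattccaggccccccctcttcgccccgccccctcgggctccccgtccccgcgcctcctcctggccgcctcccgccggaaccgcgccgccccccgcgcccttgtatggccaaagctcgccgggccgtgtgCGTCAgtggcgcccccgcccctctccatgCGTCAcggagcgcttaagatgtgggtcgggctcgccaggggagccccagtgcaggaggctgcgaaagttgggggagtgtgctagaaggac
Npas4: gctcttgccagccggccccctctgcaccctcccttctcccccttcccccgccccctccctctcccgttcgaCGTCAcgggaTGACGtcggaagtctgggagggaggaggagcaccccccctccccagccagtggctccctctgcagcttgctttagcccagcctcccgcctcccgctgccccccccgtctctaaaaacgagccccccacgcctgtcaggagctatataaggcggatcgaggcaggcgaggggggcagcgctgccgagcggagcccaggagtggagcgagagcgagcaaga

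This CRE core was found in at least 1 window of all 7 genes, and in 5 of the 7 at least 1 window held 2 or more. Among the 27025 genes of the RefSeq table with windows of the same length, 23.1% held at least 1 and 5.70% held 2 or more. Counted in bases from the start, the matches began at -129 and -66 in Fos, at -106 in Junb, at -179 and -169 in Npas4, and at -233, -213, -69 and -40 in Nr4a1. The full palindrome TGACGTCA was in none of the 7 and in 2.03% of all genes. TATAAA was found in Fos and Junb (15.7% of all genes). The EGR site, searched as GCGTGGGCG and GCGGGGGCG, was found in Fosb and Nr4a1 (3.93%), the ETS core CCGGAA in Egr2 and Nr4a1 (16.7%), and the CArG box bound by SRF in Egr2 (1.81%). All motifs were searched on both strands. TGACG lies inside TGACGTCA, and TATAAA can lie inside a CArG box. These matches describe the letters of the windows and no binding was measured.

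Ribosome footprints on the 10 genes were higher in the double KO than in WT, while no RNA difference between genotypes was called for any of them. In footprints 7 of the 10 were called higher in the double KO and none lower, where 1.5% of all genes tested were called higher. The log2 changes of the 10 ran from 0.42 for Egr3 to 1.15 for Nr4a1, with a median of 0.88 beside a median of -0.00 over all genes. For all 10 genes both double KO libraries lay above both WT libraries, which held for 25.7% of all genes. Fosb, Egr2 and Npas4 were the 3 that were not called, with adjusted p-values of up to 0.125 (edgeR).

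**Figure D1:**
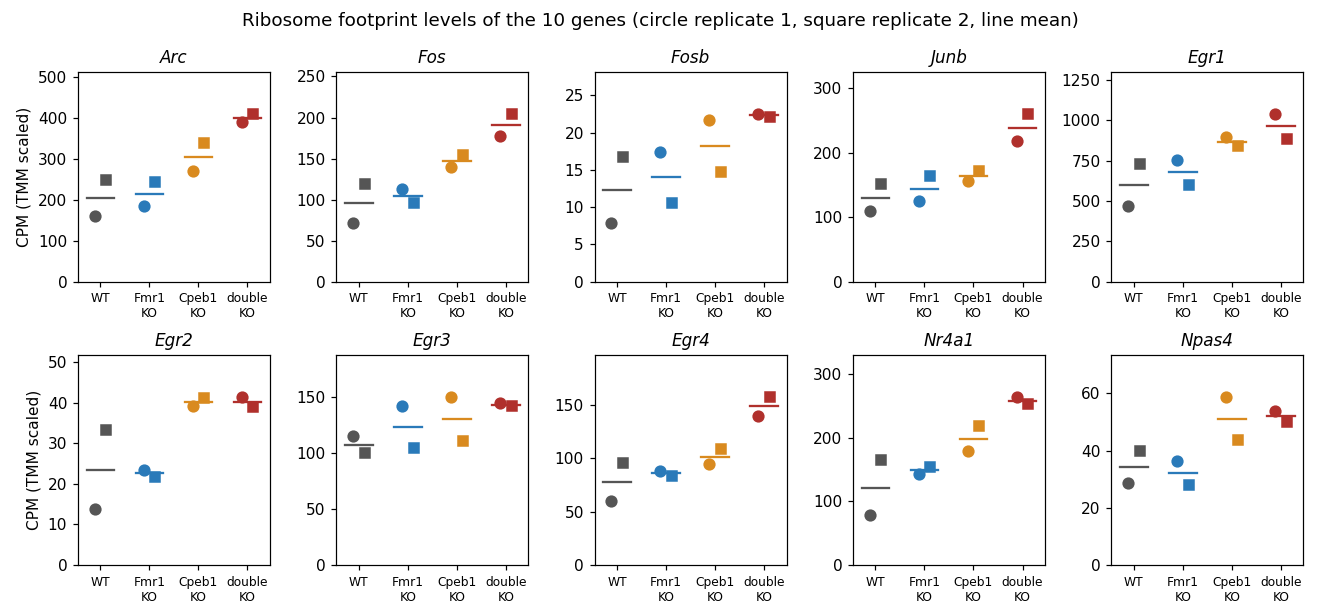
Footprint CPM of each gene (y axis, from 0) in the 4 genotypes (x axis), with a circle for replicate 1, a square for replicate 2 and a line for their mean. Both double KO points lie above both WT points in all 10 panels, for example Arc at 390.0 and 409.7 against 160.3 and 249 CPM.

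Arc, the synaptic effector of the group, had footprint levels of 160.3 and 249 CPM in WT replicates 1 and 2, 185 and 244 in the Fmr1 KO, 269.9 and 338 in the Cpeb1 KO, and 390.0 and 409.7 in the double KO. The double KO libraries were the 2 highest of the 8, and both Cpeb1 KO libraries stood above all 4 libraries that retained Cpeb1. The change in the double KO against WT was 1.00 ± 0.10 on the log2 scale (SE, 2 libraries per group), a 2.00-fold higher level, with an adjusted p of 0.000619 (edgeR). In RNA-seq Arc was at 161 and 51.8 CPM in WT, 111 and 196 in the Fmr1 KO, 114 and 157 in the Cpeb1 KO, and 227 and 67.4 in the double KO. The highest of these RNA libraries and the lowest but one were both from the double KO, and the genotypes overlapped.

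Fos, Fosb and Junb encode subunits of the AP-1 transcription factor, in which a FOS protein pairs with a JUN protein. Fos footprints were at 72.0 and 119.5 CPM in WT, 113 and 96.4 in the Fmr1 KO, 139.8 and 155 in the Cpeb1 KO, and 177 and 204 in the double KO. Those 4 libraries without Cpeb1 did not overlap the 4 with it, and the change in the double KO against WT was 1.01 ± 0.15 (log2, SE) with an adjusted p of 0.00854 (edgeR). Fos RNA levels were 35.4 and 23.5 CPM in WT, 29.4 and 54.7 in the Fmr1 KO, 32.9 and 50.9 in the Cpeb1 KO, and 42.7 and 17.7 in the double KO, so its lowest library was a double KO library. Junb footprints were at 109.8 and 151 CPM in WT, 124 and 164 in the Fmr1 KO, 156 and 171 in the Cpeb1 KO, and 217 and 260.0 in the double KO. The double KO alone was clear of the other libraries, and its change against WT was 0.88 ± 0.09 (log2, SE, adjusted p 0.000395 with edgeR). Junb RNA ran from 58.5 CPM in WT replicate 2 to 127 in Fmr1 KO replicate 2. Fosb was the least abundant of the 10 per length in both assays. Its footprints were at 7.83 and 16.7 CPM in WT, 17.4 and 10.6 in the Fmr1 KO, 21.7 and 14.7 in the Cpeb1 KO, and 22.5 and 22.1 in the double KO, and rested on 196 to 514 counts. Its RNA had 26 to 71 counts per library, which limits its precision.

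The 4 Egr genes encode zinc-finger transcription factors that bind a shared GC-rich site. Egr1, also known as Zif268, had the most footprints of the 10, at 469 and 727 CPM in WT, 757 and 602 in the Fmr1 KO, 895 and 839 in the Cpeb1 KO, and 1040.1 and 887 in the double KO. All 4 libraries without Cpeb1 were above all 4 with it, and the change in the double KO against WT was 0.69 ± 0.16 (log2, SE, adjusted p 0.0465 with edgeR). Egr1 RNA levels were 149 and 175 CPM in WT, 134 and 155 in the Fmr1 KO, 102 and 121 in the Cpeb1 KO, and 183 and 91.3 in the double KO, so that the Cpeb1 KO libraries, high in footprints, were both below WT in RNA. Egr4 footprints were at 59.5 and 95.2 CPM in WT, 88.2 and 83.3 in the Fmr1 KO, 94.5 and 108 in the Cpeb1 KO, and 139.9 and 157 in the double KO. The change in the double KO was 0.96 ± 0.13 (log2, SE, adjusted p 0.00548 with edgeR), and the Cpeb1 KO libraries overlapped WT. Egr3 moved least: its footprints were at 115 and 100.0 CPM in WT, 142 and 104 in the Fmr1 KO, 150.3 and 111 in the Cpeb1 KO, and 145 and 142 in the double KO. The called change of 0.42 ± 0.10 (log2, SE, adjusted p 0.0482 with edgeR) thus sat beside 1 Cpeb1 KO library, at 150.3 CPM, that was above both double KO libraries. The calls of Egr1 and Egr3 were the least stable of the 7: of 5 other settings they were called in 2 and 3, and of 8 fits with 1 library left out in 4 and 2. Egr2 footprints were at 13.9 and 33.1 CPM in WT, 23.5 and 21.7 in the Fmr1 KO, 39.2 and 41.1 in the Cpeb1 KO, and 41.4 and 38.9 in the double KO. The 2 genotypes without Cpeb1 lay together above the other 2, but the spread within WT was wide and the change in the double KO was not called.

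Nr4a1 encodes an orphan nuclear receptor, also known as Nur77. Its footprints were at 78.5 and 165 CPM in WT, 144 and 154 in the Fmr1 KO, 179 and 218 in the Cpeb1 KO, and 264 and 252 in the double KO. The order of the genotypes had no overlap between the Cpeb1 KO, the double KO and the 2 groups with Cpeb1, and the change in the double KO against WT was 1.15 ± 0.19 (log2, SE, adjusted p 0.0128 with edgeR). Nr4a1 RNA levels were 126 and 72.2 CPM in WT, 90.7 and 138 in the Fmr1 KO, 75.1 and 155 in the Cpeb1 KO, and 186 and 66.6 in the double KO. Npas4, a neuron-specific transcription factor of the bHLH-PAS family that is induced by calcium entry, had footprints of 28.6 and 39.7 CPM in WT, 36.3 and 28.1 in the Fmr1 KO, 58.7 and 43.6 in the Cpeb1 KO, and 54.0 and 49.9 in the double KO. Its Cpeb1 KO and double KO libraries overlapped each other and lay above the rest. Npas4 RNA was highest in double KO replicate 1, at 36.9 CPM, and lowest in Fmr1 KO replicate 1, at 12.3 CPM.

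Summed levels of other cell types' markers differed between some groups in footprints. The 5 microglial markers summed to 17.6 and 24.8 CPM in the double KO and to 26.2 to 41.5 in the other libraries. The 4 oligodendrocyte markers summed to 1696 to 1896 CPM in the double KO and 2256 to 2401 in WT, and the 4 astrocyte markers to 403 to 415 and 429.7 to 504. Striatal markers (5 genes) summed to 347 to 363 CPM in the double KO and 285 to 329 in WT, and choroid plexus markers (3 genes) to 44.6 to 62.1 and 22.3 to 24.8. In the Fmr1 KO the oligodendrocyte sum was 1856 to 1903, astrocytes 424 to 436, striatum 306 to 373 and choroid plexus 19.7 to 125. In the Cpeb1 KO these were 2113 to 2551, 444 to 479, 317 to 326 and 53.9 to 146 CPM. In RNA-seq the choroid plexus sum was lower in the double KO (14.0 to 43.7 CPM) than in WT (58.8 to 231). Among these markers P2ry12 (microglia) and Slc1a3 (astrocytes) were called lower in the double KO. No marker of these lists was at 0, and the neuronal sum was 6996 to 7346 in the double KO and 6881 to 6990 in WT. Blood markers summed to 6.51 and 36.0 CPM in the footprints of WT replicates 1 and 2. The part of these differences in the footprint result was not tested. In whole cortex, more cells expressing a gene and more RNA or ribosomes per cell cannot be told apart.

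Against the Fmr1 KO, which shares the lost Fmr1, the double KO again had higher footprints on the 10 genes. Arc, Fos, Junb and Egr4 were called higher, 4 of 10 where 0.189% of all genes were called higher, with log2 changes of 0.92 ± 0.10, 0.85 ± 0.15, 0.74 ± 0.09 and 0.79 ± 0.13 (SE) and edgeR adjusted p-values of 0.0026, 0.0415, 0.00278 and 0.0331. Both double KO libraries were above both Fmr1 KO libraries for all 10 genes, beside 21.3% of all genes. Against the Cpeb1 KO the differences were smaller. Arc rose by 0.41 ± 0.10 (log2, SE, adjusted p 0.0382), Junb by 0.54 ± 0.09 (adjusted p 0.011) and Egr4 by 0.55 ± 0.13 (adjusted p 0.0333, edgeR), 3 of 10 where 3% of all genes were called higher. The libraries did not overlap for 6 of the 10 (24.9% of all genes). The means of Fosb, Egr1, Egr2, Egr3 and Npas4 differed by less than the spread between replicates of at least 1 of the 2 genotypes. These 2 comparisons share the double KO libraries with the comparison against WT. Fitted without the replicate number, 4 of the 10 (Arc, Fos, Junb and Egr4) were called against WT, and none of the 10 against either single knockout. Leaving out double KO replicate 1 or 2 left 4 and 3 called against WT, Arc and Junb being called in both. Against the Fmr1 KO fewer were called without Fmr1 KO replicate 2, either Cpeb1 KO library or either double KO library. More were called there without either WT library. Against the Cpeb1 KO the calls were lost without any 1 of the Cpeb1 KO or double KO libraries, and more were called without either WT library. How many of all genes were called also changed widely between such fits, so these changes have no fixed share beside them.

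Neither single knockout gave a called footprint change in any of the 10 genes. In the Cpeb1 KO all 10 had higher fitted levels than WT, with a median log2 change of 0.57, and 9 of the 10 had an unadjusted p under 0.05 where 2.42% of all genes did in that direction. None passed after adjustment (0.0799% of all genes were called), the smallest adjusted p being 0.0772 for Arc at 0.59 ± 0.10 (log2, SE, edgeR). DESeq2 called Arc alone, as did edgeR without either double KO library. The libraries of both groups did not overlap for 7 of the 10 genes, beside 15.5% of all genes. The distance depended on WT replicate 1, which was the lowest of the 8 libraries for 8 of the 10 genes (not Egr3 and Npas4). Without that library the median change in the Cpeb1 KO was 0.23, whereas without WT replicate 2 it was 0.99. For the double KO the median without WT replicate 1 was 0.53. In the Fmr1 KO none of the 10 was called (0.0581% of all genes), none had an unadjusted p under 0.05 (5.09%), and the changes ran from -0.10 to 0.34. DESeq2 called none there, and leaving out WT replicate 1 or 2 gave 1 (Egr2, lower) and 3 (Egr1, Egr2 and Nr4a1, higher). The smallest p was that of Nr4a1, at 0.34 ± 0.19 (log2, SE, edgeR adjusted p 0.963).

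**Figure D2:**
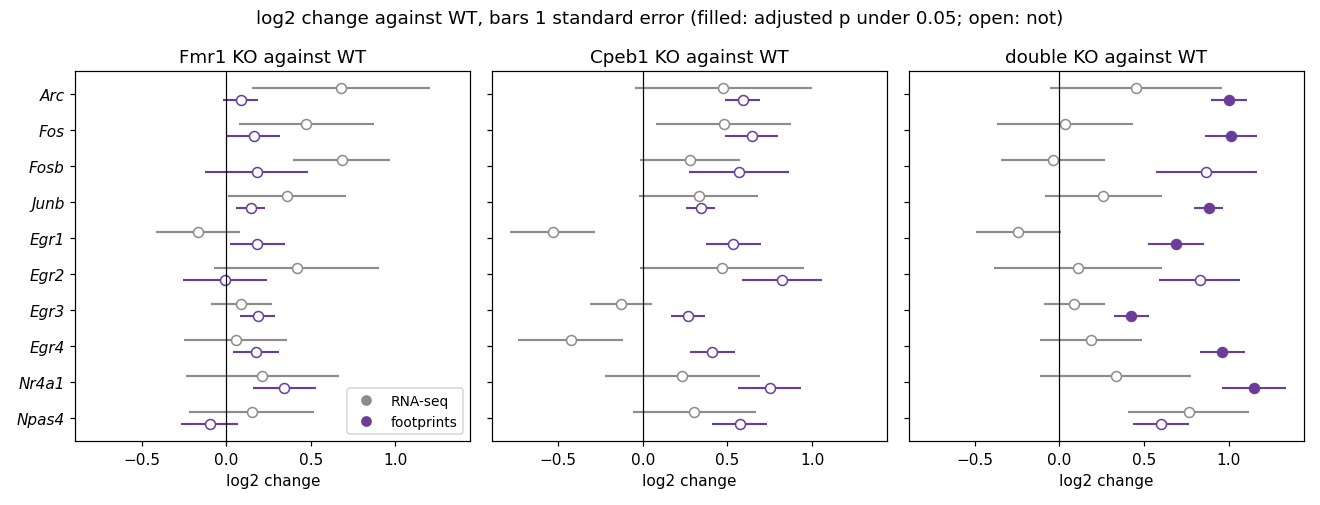
Log2 change against WT (x axis) of each gene (y axis) in the Fmr1 KO, Cpeb1 KO and double KO, in RNA-seq (grey) and footprints (purple), with bars of 1 standard error and filled points for an adjusted p under 0.05. Filled points appear only for footprints in the double KO, for 7 genes.

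When the 2 genotypes without Cpeb1 were set against the 2 with it, a comparison added after the levels had been seen, 5 of the 10 were called higher in footprints: Arc, Fos, Junb, Egr4 and Nr4a1. The share of all genes called higher was 0.138%. Their log2 changes (SE) were 0.75 ± 0.07 for Arc, 0.75 ± 0.11 for Fos, 0.54 ± 0.06 for Junb, 0.60 ± 0.09 for Egr4 and 0.78 ± 0.13 for Nr4a1, with edgeR adjusted p-values of 0.000588, 0.0166, 0.00198, 0.0236 and 0.0401. The median of all 10 was 0.63. Arc, Fos, Egr1, Egr2, Nr4a1 and Npas4 had all 4 libraries without Cpeb1 above all 4 with it, 6 of 10 beside 0.893% of all genes. Fitted without the replicate number, or as 2 groups of 4, none of the 10 was called, and leaving out 1 library gave 2 to 9 (2 or 3 without Fmr1 KO replicate 2 or any Cpeb1 KO or double KO library, 8 or 9 without a WT library). The same comparison for Fmr1 gave 1 called gene, Junb, at 0.34 ± 0.06 (log2, SE, adjusted p 0.0307 with edgeR), where 0.472% of all genes were called higher, and 0 without the replicate number. Leaving out WT replicate 1 or 2 gave 2 and 8, and 0 without any 1 of the other 6 libraries. Whether the knockouts combined differently from the sum of their single changes was tested by setting the mean of the single knockouts against the mean of the other 2 genotypes. None of the 10 was called in footprints (0.0653% of all genes), by edgeR or by DESeq2. At an unadjusted p under 0.05 there were 2 (12.6% of all genes), and the smallest p was that of Junb, lower in the single knockouts by 0.20 ± 0.06 (log2, SE, adjusted p 0.24).

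In RNA-seq none of the 10 genes was called in any comparison of genotypes, by edgeR or by DESeq2. The share of all genes called was 0.00753% for the Fmr1 KO against WT, 0% for the Cpeb1 KO, 0.00753% for the double KO, 0% for the double KO against the Fmr1 KO, 0.00753% against the Cpeb1 KO, and 2.06% for the single knockouts against WT and the double KO. The counts for lost Cpeb1 and lost Fmr1 over both backgrounds were likewise 0 of 10, beside 0% and 0.00753% of all genes. Fosb alone had an unadjusted p under 0.05: in the Fmr1 KO against WT (0.68 ± 0.29 higher on the log2 scale, SE, edgeR adjusted p 0.602, with 8.09% of all genes at that unadjusted level), in the double KO against the Fmr1 KO (0.72 ± 0.29 lower, adjusted p 0.265, 15.7% of all genes) and in the pooled single knockouts (0.50 ± 0.21 higher, adjusted p 0.179, 23.4% of all genes). No member reached it in the Cpeb1 KO (11% of all genes), the double KO (4.23%) or the double KO against the Cpeb1 KO (19.2%). The smallest p there were those of Egr1 in the Cpeb1 KO (-0.53 ± 0.25, adjusted p 0.466), Npas4 in the double KO (0.76 ± 0.36, adjusted p 0.966) and Egr4 in the double KO against the Cpeb1 KO (0.61 ± 0.31, adjusted p 0.314, edgeR). For both genotypes that lack a gene against both that have it, they were those of Npas4 for Cpeb1 (0.46 ± 0.25) and Egr4 for Fmr1 (0.33 ± 0.22), each with an edgeR adjusted p of 1.00.

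**Figure D3:**
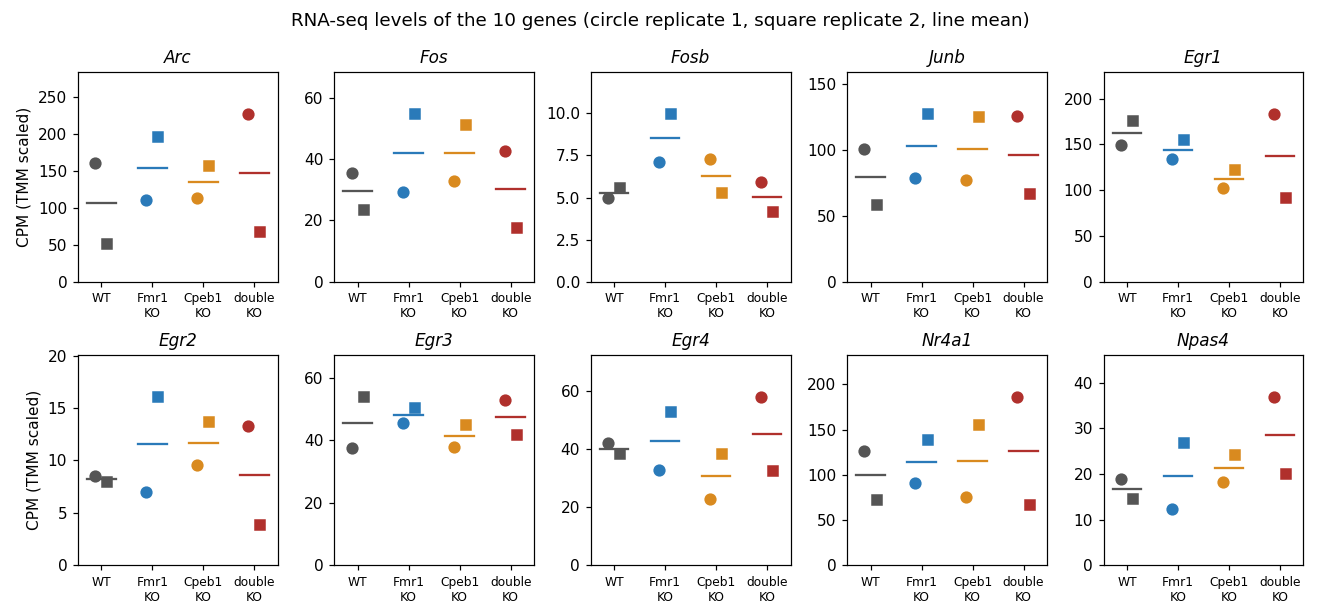
RNA-seq CPM of each gene (y axis, from 0) in the 4 genotypes (x axis), with a circle for replicate 1, a square for replicate 2 and a line for their mean. The 2 double KO libraries lie far apart for most genes, for example Arc at 227 and 67.4 CPM.

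RNA levels of the 10 genes differed between the replicates of a genotype, in a direction that varied with the genotype. In the double KO all 10 genes were higher in replicate 1 than in replicate 2, with a median difference of 0.96 on the log2 scale and a range of 0.35 to 1.75. In the Fmr1 KO all 10 were higher in replicate 2, with a median of 0.69, and in the Cpeb1 KO 9 of 10, with a median of 0.48. In WT 7 of 10 were higher in replicate 1. Over all genes tested in both assays, 49.8% to 50.4% were higher in replicate 2 of a genotype, with a median difference within 0.01 of 0. The replicate number as a term called none of the 10 in RNA (0.309% of all genes) or in footprints (0.0218%). DESeq2 called none in RNA, and Arc and Junb in footprints. Against the mean of each gene over the 8 RNA libraries, all 10 genes were above it in Fmr1 KO replicate 2 and 9 in double KO replicate 1, while none was above it in double KO replicate 2.

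Spread between replicates of a genotype was large for these genes in RNA. The biological coefficient of variation, edgeR's estimate of the replicate spread after counting error, was 0.346 for Arc, 0.321 for Egr2, 0.305 for Nr4a1 and 0.269 for Fos, against a median of 0.103 over all genes. These 4 stood at percentile 99.3 or above among all genes, and the remaining 6 between percentiles 74.9 (Egr3) and 98.8 (Junb). In footprints the same estimate was 0.079 for Arc, 0.0673 for Junb and 0.0776 for Egr3, at percentiles 50.5, 25.5 and 48.4, and Fosb, at 0.201 and percentile 98.1, was the highest. The footprint libraries were deeper, and the estimate is meant to be free of counting error. The Arc and Junb estimates depended on the replicate term: without it they were 0.131 and 0.113.

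**Figure D4:**
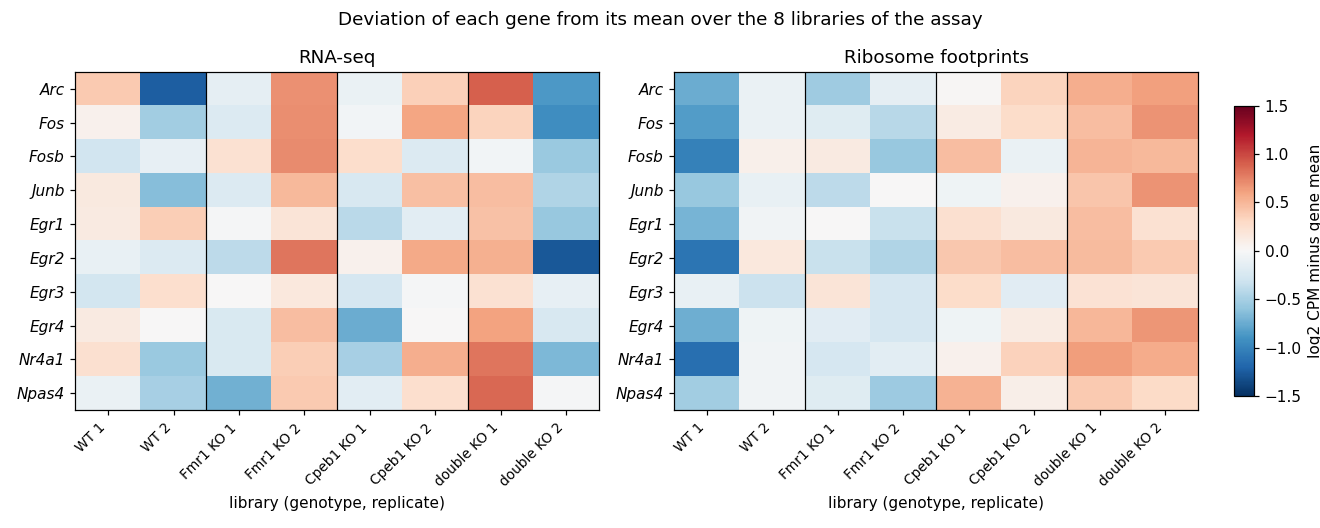
Colour shows log2 CPM minus the gene's mean over the 8 libraries of the assay, for each gene (rows) and library (columns, grouped by genotype), in RNA-seq (left) and footprints (right). In RNA the 2 columns of a genotype differ in colour, as in the double KO, where 9 and 0 of the 10 genes lie above their mean; in footprints both double KO columns have all 10 above it.

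Footprint and RNA levels did not rank the libraries alike. The cytoplasmic lysate was split for both assays per the labels' protocols, and libraries were matched here by genotype and replicate number, since the labels do not number the lysates. Pearson's r between log2 RNA CPM and log2 footprint CPM over the 8 matched pairs ran from -0.37 for Egr3 to 0.19 for Npas4, with a median of -0.03, beside a median of 0.26 over the 13027 genes tested in both assays. None of the 10 had an exact permutation p under 0.05 (smallest 0.346, two-sided), and Spearman's rho ran from -0.43 to 0.19 (smallest exact permutation p 0.299). Without the 2 pairs farthest from the median in RNA, r ran from -0.54 to 0.69. Within WT, where RNA replicate 1 was the higher for 7 genes, footprint replicate 1 was the lower for 9. Only 2 of the 10 genes had the same direction between replicates in both assays there, 3 in the Fmr1 KO, 7 in the Cpeb1 KO and 6 in the double KO. Over all genes that share was 51.4% to 59.1%, and the differences between replicates in RNA and footprints were only weakly related over genes, with r from 0.01 to 0.17.

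Among themselves the 10 genes were positively correlated over all 8 libraries of each assay. All 45 pairs had a positive r over the 8 footprint libraries, from 0.29 for Arc with Egr3 to 0.97 for Fos with Egr4, and 28 pairs (62.2%) exceeded 0.8, as did 2.36% of all pairs of genes. In RNA-seq all 45 were also positive, from 0.02 for Arc with Egr3 to 0.95 for Fos with Egr2, and 8 pairs (17.8%) exceeded 0.8, beside 2.54% of all pairs. The medians were 0.86 in footprints and 0.57 in RNA, and by Spearman's rho 0.81 and 0.62. All pairs share the same 8 libraries, so these values describe the libraries and carry no p. Without the 2 libraries farthest from the median, 33 of the 45 pairs were positive in RNA, the lowest being Fosb with Egr4 at -0.63, and 44 in footprints. After each genotype's mean was taken out, the median was 0.65 in footprints, with 38 of 45 pairs positive, and 0.77 in RNA, with 44 positive. Egr3 was the least tied to the others, with a median r of 0.45 in footprints and 0.27 in RNA, and Fosb had a median r of 0.28 in RNA.

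The genes most like the group were ranked by the smaller of their r in RNA and in footprints with the mean profile of the 10, over 8 libraries per assay and 10332 genes averaging at least 50 counts. The first 10 were Stk40 (0.80 in RNA and 0.88 in footprints), Tiparp (0.77 and 0.79), Sik1 (0.77 and 0.87), Klf10 (0.82 and 0.76), Arl4d (0.77 and 0.75), Nr4a2 (0.79 and 0.75), Dusp1 (0.75 and 0.77), Per1 (0.73 and 0.76), Zfp658 (0.79 and 0.72) and Trib1 (0.71 and 0.94). Of these genes, 7 were on a list of other rapidly induced genes: Sik1, Klf10, Arl4d, Nr4a2, Dusp1, Per1 and Trib1. The list was chosen with earlier results of these data known, so this overlap is a description and was not tested.

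That list held 27 rapidly induced genes beside the 10, of which 23 were tested in footprints. In the double KO against WT 10 were called higher and none lower (1.5% of all genes were called higher), with a median log2 change of 0.55. They were Ier2 (0.73), Ier5 (1.10), Dusp1 (0.70), Dusp6 (0.64), Klf10 (0.49), Sik1 (0.96), Fosl2 (0.83), Per1 (0.87), Trib1 (0.91) and Arl4d (0.41). Ier5, an early response gene, had the smallest adjusted p, 5.32e-05 (edgeR), with footprints of 66.1 and 66.4 CPM in WT and 136 and 147 in the double KO. In RNA-seq it stood at 80.9 and 69.5 CPM in WT against 82.6 and 96.6 in the double KO. Dusp1 and Dusp6 encode phosphatases of MAP kinases, Sik1 a salt-inducible kinase and Fosl2 a further AP-1 subunit. Against the Fmr1 KO 4 of the 23 were called higher (0.189% of all genes), and against the Cpeb1 KO 2 (3%). With both genotypes lacking Cpeb1 against both retaining it, 5 were (0.138%). In RNA none of the 24 tested was called in any comparison of genotypes.

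Fewer calls were found among later activity genes and upstream signalling genes, a difference between lists that was not tested. Of 17 later genes, such as Bdnf, Nptx2, Homer1 and Vgf, 1 was called higher in double KO footprints against WT, where 1.5% of all genes were. This was Dusp5 (0.90 ± 0.14, log2, SE, adjusted p 0.00854 with edgeR), another MAP kinase phosphatase. The median change of the later genes was 0.07. Of 19 genes acting upstream, among them Creb1, Srf and Mef2c, the transcription factor gene Mef2d was called higher (0.36 ± 0.08, adjusted p 0.0446) and the median was 0.02. Against the Cpeb1 KO, 2 later genes (Scg2 and Rheb) were called lower, where 2.61% of all genes were. The upstream genes Mkl1 and Mef2d were called higher there, beside 3% of all genes.

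Translational efficiency, here the footprint level relative to the RNA level of the same gene, was high for the group on average. In each of the 8 matched pairs, the log2 ratio of footprint to RNA CPM was taken relative to the median gene of that pair. Its mean was 2.74 ± 0.57 (SD) for Egr1, 2.17 ± 0.84 for Fos, 1.91 ± 0.87 for Egr2 and 1.72 ± 0.37 for Egr3. These 4 stood at percentile 98.4 or above among the 13027 genes. The lowest was Nr4a1, at 0.94 ± 0.79 and percentile 87.1. This ratio relative to the median gene varied between replicates: for Arc it was 0.25 in WT replicate 1 and 2.50 in WT replicate 2, and for Fos 2.29 and 3.77 in the 2 double KO replicates. When each gene's change in footprints was tested against its change in RNA, none of the 10 was called in the Fmr1 KO (0.0154% of all genes), the Cpeb1 KO (0%) or the double KO (0.00768%), by edgeR or by DESeq2. At an unadjusted p under 0.05 there were 0 in the Fmr1 KO (7.88% of all genes), 2 in the Cpeb1 KO, Egr1 and Egr4 (9.4%), and 1 in the double KO, Egr1 (3.5%). Egr1 had the smallest p in each, with changes of 0.37 ± 0.35, 1.09 ± 0.35 and 0.91 ± 0.35 (log2, SE) and edgeR adjusted p-values of 0.842, 0.391 and 1.00. The double KO median of 0.72 over the 10 genes carried standard errors of 0.22 to 0.63 per gene. In the same fit Fmr1 itself was called, at -2.08 ± 0.20 (adjusted p 0.000375, edgeR).

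Per kilobase of counted sequence, the mean RNA level over the 8 libraries placed Arc first (114 ± 51.3 CPM per kb, SD), then Junb (91.9 ± 27.4), Egr1 (86.8 ± 20.6) and Nr4a1 (63.1 ± 24.5). No neighbours in the order were separated by more than their SD, except Egr4 and Npas4. Egr3 (40.3 ± 5.73), Fos (31.5 ± 11.3) and Egr4 (27.7 ± 7.92) followed, and Npas4 (8.94 ± 3.24), Egr2 (7.08 ± 2.87) and Fosb (6.20 ± 1.80) were lowest. In footprints Egr1 led (504 ± 117 CPM per kb), then Arc (248 ± 80.4), Junb (173 ± 50.0), Fos (124 ± 40.1), Egr3 (119.7 ± 19.5), Nr4a1 (104 ± 35.0) and Egr4 (75.0 ± 22.9), with Egr2 (23.4 ± 7.78), Npas4 (18.0 ± 4.82) and Fosb (17.4 ± 5.71) again at the bottom. Neighbours in this order were separated by more than their SD only between Egr1 and Arc and between Egr4 and Egr2.

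In the authors' deposited tables of DESeq2 comparisons, the footprint calls at an adjusted p under 0.05 were Arc, Fos, Junb, Egr3, Egr4, Nr4a1 and Npas4 for the double KO against WT, 7 of the 10, beside 8.26% of genes with an adjusted p. The authors' deposited table for the double KO against the Fmr1 KO called 5 (Arc, Fos, Junb, Egr4 and Npas4), beside 4.39% of genes with an adjusted p. That against the Cpeb1 KO called 3 (Arc, Junb and Egr4), beside 13.5%. That for the Cpeb1 KO against WT called Arc, at a log2 change of 0.52, beside 0.138%. Comparing the single knockouts directly, the authors' deposited table gave Arc (-0.44) and Npas4 (-0.57) as lower in the Fmr1 KO than in the Cpeb1 KO. There 0.163% of genes with an adjusted p were called. In the authors' deposited RNA tables none of the 10 was called, with an adjusted p given for 5 to 10 of them. The share of genes with an adjusted p that were called there ran from 0.0133% to 13.6%. It was 0.0133% for the double KO against WT and 13.6% for the single knockouts against WT and the double KO. The authors' deposited Xtail tables of translational efficiency called Egr1 higher in the Cpeb1 KO than in WT (log2 change 0.97, adjusted p 0.0178) and Fosb higher in the double KO than in the Fmr1 KO (1.15, adjusted p 0.0176). Of all genes, 2.47% and 0.695% were called in these 2 comparisons. None of the 10 was called for the double KO against WT (0.152% of genes) or the Fmr1 KO against WT (2.96%). The same held for the double KO against the Cpeb1 KO (0.668%) and the Cpeb1 KO against the Fmr1 KO (0.0618%).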

How the data were processed

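RNA-seq of cytoplasmic RNA and ribosome footprints were measured in cortex of 4 genotypes, with 2 libraries per genotype and assay. The authors deposited expected counts, TPM and feature lengths per gene and library, in RSEM's format per the file headers. The submitters' processing notes name cutadapt, Bowtie2, TopHat2, RSEM and DESeq2, and build mm10, without versions. Of 15716 genes with 1 transcript, 99.6% had a length divisible by 3, so counts appear to cover coding length. The authors' deposited comparisons hold log2 changes and adjusted p-values from DESeq2 or Xtail, per the series' design text.

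Expected counts were rounded and tested with edgeR 4.0.16 in R 4.3.3 (TMM, filterByExpr with a minimum count of 10, quasi-likelihood test) over all genes, with 4 genotypes and the replicate number as terms. That term was recalled from the study's methods and is not stated in the labels. Log2 CPM used a prior count of 2. The deposited TPM served as an alternative, as log2(TPM + 0.1). Translational efficiency was the interaction of assay and genotype over 16 libraries, each assay with its own replicate term. Correlations used all 40320 pairings of 8 libraries; p-values adjusted over the 10 genes alone are not given. Functions were tested on simulated data first.

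The members, lists, tests and alternatives were chosen with earlier results of these data known. All 10 members are named, with a fold change and test where a member was called and otherwise for the smallest p of a comparison; list genes are named where called, and like genes by rank. Alternatives were no replicate term, DESeq2 1.42.0, RLE scaling, no filter, only the compared genotypes, and leaving out each library. Calls of some marker and upstream genes are not reported here.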

Additional observations from a re-analysis of the deposited data

Results flagged for a closer look

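Among the lists of activity genes, 4 genes had an RNA level that differed between both single knockouts on one side and WT and the double KO on the other, by the test of that difference (edgeR, adjusted p 0.0405 to 0.0469), where 2.06% of all genes were called. No gene was called in this comparison without the replicate block, or without WT replicate 1, WT replicate 2 or double KO replicate 1, so the 4 calls are lost there. Over all settings the count of genes called, 274 here, ran from 0 to 1360. Pcsk1, a later activity gene that encodes a prohormone convertase, was higher in the single knockouts by 0.50 on the log2 scale, with 108 to 124 CPM there and 68.7 to 88.3 in WT and the double KO. Upstream genes (3) had lower levels in the single knockouts, with log2 changes of -0.75 for Crtc1 (a CREB coactivator), -0.51 for Mkl1 (an SRF coactivator) and -0.53 for Mef2d. Crtc1 RNA levels were 33.2 to 43.5 CPM in the single knockouts and 55.5 to 82.9 in the other libraries. None of the 10 immediate-early genes was called in this comparison.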

How the results depend on the processing

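Of the 10 genes, the number called in double KO footprints against WT was 4 to 9 over the 5 other analyses and 3 to 9 when 1 library was left out, and Arc and Junb were called in each of them. What the replicate number stands for is not stated in the labels, and the main fit used it as a block. Deviations of same-numbered libraries correlated at -0.03 to 0.29 in RNA and -0.08 to 0.39 in footprints, with 3 of 6 pairs over 0.1 in each. These values do not settle whether same-numbered libraries belong together. Without the replicate block, the footprint calls were 4 against WT, 0 against either single knockout, and 0 for Cpeb1 or Fmr1 lost over both backgrounds, and the variation of Arc and Junb rose to 0.131 and 0.113. Fitting only the 2 genotypes compared gave 5 calls in the Cpeb1 KO, 9 and 5 in the double KO against the Fmr1 KO and the Cpeb1 KO, and 1 in double KO RNA. DESeq2 called 1 in Cpeb1 KO footprints, 2 between replicates and 3 for lost Fmr1; with no filter on low counts these were 1, 2 and 2, and 8 for lost Cpeb1; with 2 pooled groups of 4, 0 for either gene lost. Leaving out 1 library gave 0 to 3 calls in Fmr1 KO footprints, 0 to 8 in the Cpeb1 KO, 2 to 9 and 0 to 5 in the double KO against the Fmr1 KO and Cpeb1 KO, 0 to 2 for the combined single knockouts, 0 to 5 between replicates, 2 to 9 for lost Cpeb1 and 0 to 8 for lost Fmr1. In RNA it gave 0 to 1 in the Cpeb1 KO and for lost Cpeb1, and 0 to 2 in the double KO against the Cpeb1 KO and in the combined single knockouts. Pairs of members with r over 0.8 numbered 18 to 32 in footprints and 7 to 14 in RNA. The direction turned, when 1 library was left out, for RNA changes of Npas4 in the double KO (-0.0216 to 1.28), Egr4 in the double KO against the Cpeb1 KO (-0.10 to 1.20) and with Fmr1 lost (-0.0470 to 0.60), for Nr4a1 footprints in the Fmr1 KO (-0.0948 to 0.87) and for the translational efficiency of Egr1 there (-0.0196 to 0.79). The median r between RNA and footprints over the 10 genes ran from -0.33 to 0.20. The cause of these changes was not tested. Over all genes, the count called in double KO footprints against WT was 365, and 73 to 540 over the other analyses. With 1 library left out that count ranged more widely in both directions. Member counts from fits with 1 library left out therefore have no single share of all genes beside them. RNA depth limits Fosb and Egr2 most, with 26 to 71 and 24 to 110 counts.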
